A study of Mus musculus with 20 samples.

Results

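The genes that encode the respiratory chain in the cell nucleus were examined in mouse medial prefrontal cortex after an injection of CDS or PBS into that region. They were taken by symbol: all genes whose symbol starts with Nduf, Uqcr, Atp5, Cox4, Cox5, Cox6, Cox7 or Cox8, and Sdha, Sdhb, Sdhc and Sdhd. The rule took 92 of the 20375 genes in each of the authors' 2 comparison tables, without use of any measured value. By complex these were 37 genes of complex I, 4 of complex II, 8 of complex III, 18 of complex IV and 17 of complex V, with 8 assembly factors of complex I (the Ndufaf genes). Ndufa4 and its paralog Ndufa4l2 were counted with complex IV, where the Ndufa4 protein resides. Atp5s is not a subunit of the enzyme, but its symbol places it with complex V. The symbol Ndufa13 stood at 2 gene IDs, and the GENCODE annotation names the second of them Yjefn3, so that the list held 91 distinct symbols.

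The 20 samples came from C57BL/6 mice and fell into 4 groups of 5. One pair of groups, CDS and PBS, was sampled on postnatal day 84, which is 12 weeks of age and 6 weeks past the injection. The other pair, again CDS and PBS, was sampled on postnatal day 47, which is 5 days past the injection (5 dpi). The labels do not spell out CDS, and the series title calls the work a microglia depletion model. All groups had an injection into the cortex, so the effect of the injection itself is shared by CDS and PBS and cannot be seen in these comparisons. The labels number the samples without saying whether each is 1 animal, so the spread that stands behind each p-value is that of these samples, whatever their source.

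The respiratory chain sits in the inner mitochondrial membrane. Complexes I and II take electrons from NADH and succinate, complex III passes them to cytochrome c, and complex IV hands them to oxygen, while complexes I, III and IV move protons across the membrane. Complex V, the ATP synthase, lets the protons return and makes ATP. Most subunits are encoded in the nucleus and imported, and a small set, mostly of the catalytic core, is encoded by mitochondrial DNA. Neurons depend on this chain for the energy of synaptic transmission and ion pumping.

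For each gene the tables hold a q-value and a log2 fold change (CDS over PBS). They hold neither levels nor values of single samples, so sequencing depth is unknown and no mouse can be shown on its own. A gene was called where q was under 0.05. A standard error was derived from each fold change and its q-value at 5 dpi and is given below as the implied SE, with the 95% interval that follows from it. Among the 92 genes the implied SE ran from 0.051 to 0.45 on the log2 scale, with a median of 0.11, against 0.12 over 15454 protein-coding genes. In the authors' deposited table, 12 of 12 microglia markers and 8 of 8 markers of oligodendrocyte precursors were called lower at 5 dpi, with medians of -1.54 and -2.43. At 12 weeks 0 of the 12 and 8 of the 8 were called lower in the authors' deposited table, with medians of -0.37 and -0.88. Of all genes 0.0982% were called lower at 12 weeks. In bulk tissue, fewer cells of a type and less RNA per cell cannot be told apart. All 10 neuron markers were listed, with a median of 0.11 at 5 dpi in the authors' deposited table, and levels were not given to check the tissue further. Of these, Neurod2, a factor of excitatory neurons, was called higher and Gad1, an enzyme of inhibitory neurons, lower, at 0.39 and -0.35 (q = 0.0334 and 0.0303, as read from the authors' deposited table). Of all genes 2.75% were called higher and 3.18% lower at 5 dpi. The other neuron markers were not called, and 8 of all 10 lay above 0, against 50.5% of protein-coding genes. Rbfox3, Snap25 and Syt1 stood at 0.17, 0.16 and 0.046. Slc17a7 and Camk2a of excitatory neurons stood at 0.43 and -0.18, and Gad2, Pvalb and Sst of inhibitory neurons at 0.0029, 0.070 and 0.21.

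At 5 dpi, 4 of the 92 genes were called in the authors' deposited table, and all 4 were higher in CDS: Ndufa4l2, Atp5g3, Atp5d and Ndufb7. The background was 5.92% of all genes called in either direction and 2.75% called higher, and among protein-coding genes 7.09% were called. The 4 genes are 4.35% of the list, a share near this background. No gene of the list was called lower, against 3.18% of all genes. At an unadjusted p under 0.05, recovered from the q-values, 10 of the 92 genes (10.9%) were higher and 0 lower. Of all genes 19.1% had such a p, 8.25% higher and 10.8% lower. Over the 92 genes the median log2 fold change in the authors' deposited table was 0.017, against -0.023 over all genes and 0.0021 over protein-coding genes, and 53 of 92 lay above 0.

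**Figure D1:**
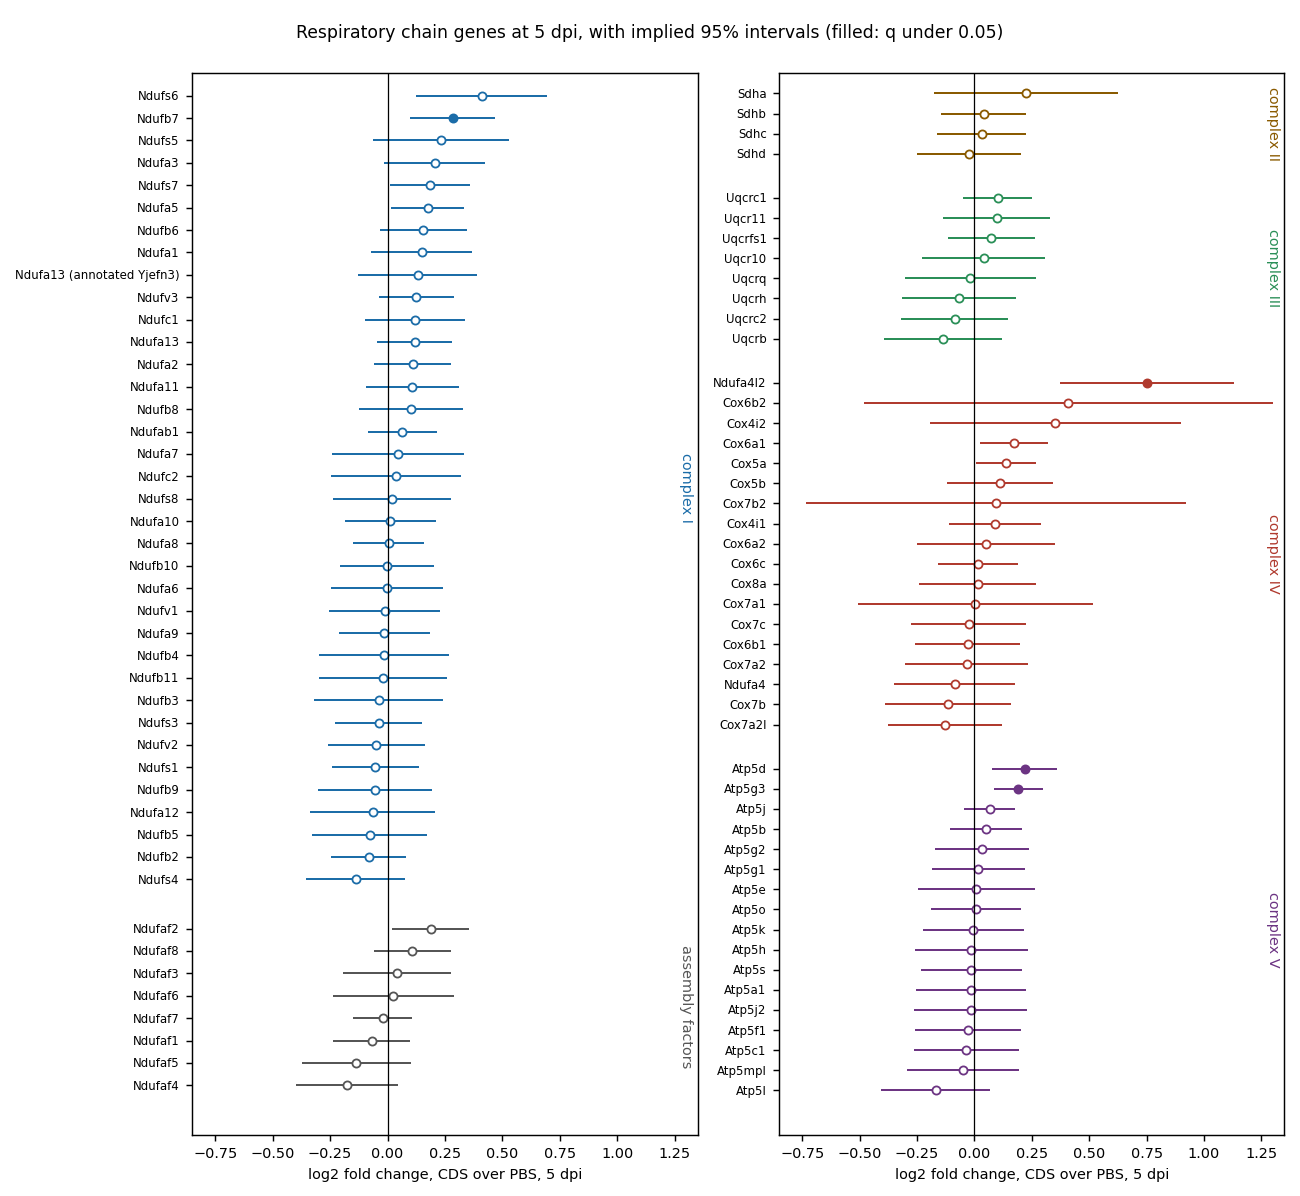
Log2 fold change of CDS over PBS at 5 dpi (horizontal axis) for the genes of the chain, grouped by complex, with its implied 95% interval as a line; filled points had q under 0.05. Most points lie near 0, 4 points are filled, and the Ndufa4l2 point stands farthest to the right at 0.75.

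The differences were small. The median absolute log2 fold change at 5 dpi was 0.064 over the 92 genes in the authors' deposited table, against 0.12 over protein-coding genes. The implied 95% interval lay within a 1.5-fold change in either direction for 86 of the 92 genes. The 6 genes whose interval reached past 1.5-fold were Ndufa4l2, Cox6b2, Cox4i2, Cox7b2, Ndufs6 and Sdha.

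In complex V, 2 of 17 genes rose at 5 dpi, where 2.75% of all genes were called higher. Atp5g3 encodes subunit c, the proteolipid that forms the rotating ring in the membrane (chromosome 2, 73908447 to 73911326, minus strand, GRCm38). It rose by 0.19 in log2 units in the authors' deposited table, 1.14-fold, with an implied SE of 0.051 and an implied interval of 1.07 to 1.23-fold (q = 0.00729). Its implied SE was the smallest of the list. Atp5d encodes the delta subunit of the central stalk (chromosome 10, 80138632 to 80145818, plus strand). It rose by 0.22 in the authors' deposited table, 1.16-fold, with an implied SE of 0.070 and an implied interval of 1.06 to 1.28-fold (q = 0.0354).

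Subunit c is encoded by 3 nuclear genes, Atp5g1, Atp5g2 and Atp5g3, which differ in the import sequence that is cut off in the mitochondrion. The protein after import is the same. The coding bases of the mature part are shown, from GENCODE M21 transcripts on GRCm38, because they tell how far reads of the 3 genes can be kept apart. Each line gives the last 225 coding bases before the stop codon. Capitals mark bases that differ from Atp5g3, and, in the Atp5g3 line, bases that differ from either of the others.
Atp5g3: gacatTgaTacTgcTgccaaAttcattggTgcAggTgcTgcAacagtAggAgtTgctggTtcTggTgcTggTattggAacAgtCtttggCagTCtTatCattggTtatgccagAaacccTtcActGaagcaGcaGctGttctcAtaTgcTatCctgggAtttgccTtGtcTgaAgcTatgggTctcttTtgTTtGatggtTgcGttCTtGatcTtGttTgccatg
Atp5g1: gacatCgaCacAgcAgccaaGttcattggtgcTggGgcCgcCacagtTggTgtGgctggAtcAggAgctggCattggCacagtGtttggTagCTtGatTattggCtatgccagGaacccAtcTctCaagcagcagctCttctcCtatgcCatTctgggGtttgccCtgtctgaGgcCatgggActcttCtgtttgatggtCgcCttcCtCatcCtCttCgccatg
Atp5g2: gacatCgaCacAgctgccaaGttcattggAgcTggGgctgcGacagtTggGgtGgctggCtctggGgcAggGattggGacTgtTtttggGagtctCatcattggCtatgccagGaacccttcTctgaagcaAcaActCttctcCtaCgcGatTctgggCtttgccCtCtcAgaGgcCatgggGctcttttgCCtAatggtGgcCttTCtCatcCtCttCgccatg
Atp5g1 differed from Atp5g3 at 45 of the 225 bases and Atp5g2 at 48, while 0 of 75 encoded residues differed in either pair. The longest run of identical bases was 11 between Atp5g1 and Atp5g3 and 8 between Atp5g2 and Atp5g3, so within this stretch any longer read carries at least 1 base that separates Atp5g3 from that gene. At 5 dpi Atp5g1 stood at 0.018 and Atp5g2 at 0.034 (q = 0.953 and 0.906, as read from the authors' deposited table), with implied intervals of -0.18 to 0.22 and -0.17 to 0.23. The interval of Atp5g3, 0.091 to 0.29, overlapped both, and the difference between the 3 genes was not tested.

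The other catalytic and stalk genes of complex V were not called. In the authors' deposited table Atp5a1 and Atp5b, the alpha and catalytic beta subunits, stood at -0.016 and 0.049 at 5 dpi (q = 0.962 and 0.794). Atp5c1 and Atp5e, the gamma and epsilon subunits that share the central stalk with the delta subunit, stood at -0.035 and 0.0072 (q = 0.915 and 0.987, as read from the authors' deposited table). Atp5j, coupling factor 6 of the peripheral stalk, stood at 0.067 (q = 0.545, as read from the authors' deposited table). The lowest of the complex was Atp5l, the membrane subunit g, at -0.17 in the authors' deposited table with an implied interval of -0.40 to 0.063 (q = 0.464).

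The highest value of the list was that of Ndufa4l2 (chromosome 10, 127514967 to 127517154, plus strand), a paralog of Ndufa4 that is known as a target of the hypoxia-inducible factor and, in mouse brain, as a gene of pericytes. It rose by 0.75 at 5 dpi in the authors' deposited table, 1.68-fold, with an implied SE of 0.19 and an implied interval of 1.30 to 2.19-fold (q = 0.0039). Its paralog Ndufa4 stood at -0.087 in the authors' deposited table, with an implied interval of -0.34 to 0.17 (q = 0.788). Cox4i2, the isoform of subunit 4 that is likewise known from pericytes, stood at 0.35 in the authors' deposited table, with an implied interval of -0.19 to 0.90 (q = 0.526). The common isoform Cox4i1 stood at 0.090 (q = 0.687, as read from the authors' deposited table). Of the markers of pericytes and smooth muscle, 9 of 9 lay above 0 at 5 dpi in the authors' deposited table, from 0.063 to 0.67, with a median of 0.21. Abcc9 and Pdgfrb, a channel subunit and a growth factor receptor of these cells, rose by 0.67 and 0.37 (q = 3.55e-08 and 0.00257, as read from the authors' deposited table), and the channel gene Kcnj8 stood at 0.53 (q = 0.0981). Their part in the Ndufa4l2 value was not tested.

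**Figure D2:**
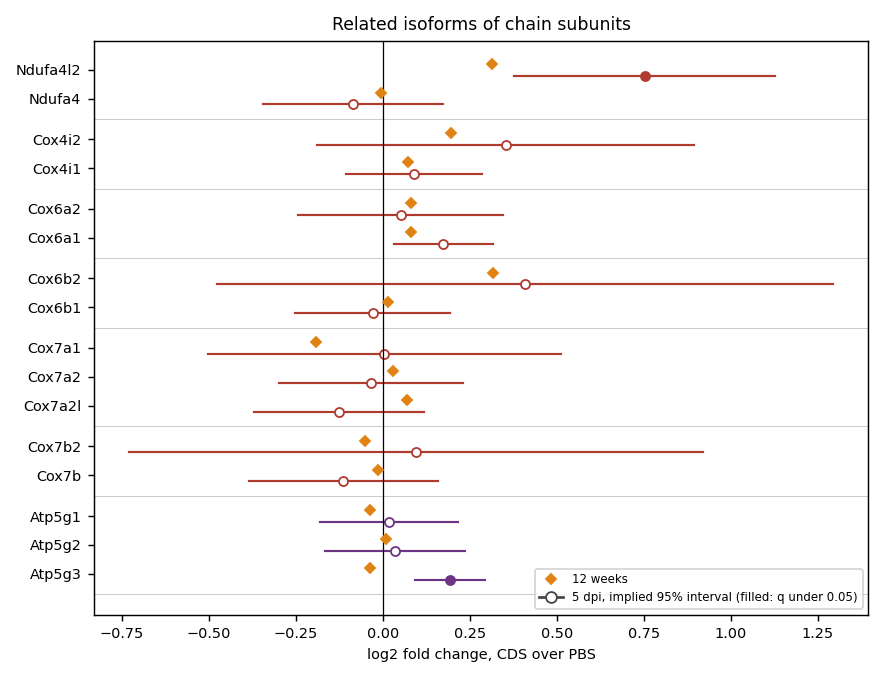
Log2 fold change of CDS over PBS (horizontal axis) for groups of related isoforms, with diamonds for 12 weeks and circles with implied 95% intervals for 5 dpi; filled circles had q under 0.05. Ndufa4l2 lies right of Ndufa4 at both times. The intervals of Cox4i2, Cox6b2, Cox7b2, Cox7a1 and Cox6a2 span 0 and, apart from that of Cox6a2, are wide.

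Other isoforms known mainly from muscle, heart or testis were loosely measured, apart from Cox6a2, whose implied SE was nearer the list median of 0.11. Cox6b2, Cox7b2, Cox7a1 and Cox6a2 stood at 0.41, 0.095, 0.0044 and 0.051 at 5 dpi (q from 0.683 to 0.996, as read from the authors' deposited table), with implied SEs of 0.45, 0.42, 0.26 and 0.15. The widespread forms Cox6b1, Cox7b, Cox7a2 and Cox6a1 stood at -0.029, -0.11, -0.034 and 0.17 (q from 0.149 to 0.930, as read from the authors' deposited table). Cox7a2l, a relative of Cox7a2, was the lowest gene of complex IV at -0.13 in the authors' deposited table, with an implied interval of -0.37 to 0.12 (q = 0.635). Of the remaining complex IV genes, Cox5a, which binds the core from the matrix side, stood at 0.14 in the authors' deposited table with an implied interval of 0.010 to 0.26, not past the threshold (q = 0.219). Cox5b, Cox6c, Cox7c and Cox8a lay between -0.025 and 0.11 in the authors' deposited table.

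In complex I, 1 of 37 genes rose at 5 dpi, against the same 2.75% of all genes. Ndufb7, an accessory subunit on the intermembrane side of the membrane arm (chromosome 8, 83566671 to 83571626, plus strand), rose by 0.28 in the authors' deposited table, 1.22-fold, with an implied SE of 0.092 and an implied interval of 1.07 to 1.38-fold (q = 0.0382). Ndufs6, a zinc-binding accessory subunit of the matrix arm, had a larger value of 0.41 in the authors' deposited table but an implied SE of 0.14, and did not pass (q = 0.064). A processed pseudogene named for Ndufs6 is annotated, and reads of the pair may be split between them. Ndufs5 and Ndufa3, accessory subunits of the membrane arm, stood at 0.23 and 0.21 (q = 0.406 and 0.291, as read from the authors' deposited table), and Ndufa5 of the matrix arm at 0.18 (q = 0.186). Both Ndufa13 entries stood close together, the first at 0.12 and the one annotated as Yjefn3 at 0.13 (q = 0.453 and 0.637, as read from the authors' deposited table).

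Nuclear genes of the catalytic core of complex I, the part that holds its flavin and iron-sulphur clusters, were also examined. Ndufs7 stood at 0.18 in the authors' deposited table with an implied interval of 0.013 to 0.35 (q = 0.218). Ndufs8 and Ndufv1 stood at 0.019 and -0.013 in the authors' deposited table, and Ndufs3, Ndufv2 and Ndufs1 at -0.039, -0.049 and -0.053, each with q above 0.8. By position, the 16 genes of the matrix arm had a median of 0.0080 as read from the authors' deposited table, and the other 21 a median of 0.064. The lowest complex I value was that of Ndufs4, an accessory subunit whose loss causes a Leigh-like disease in mice, at -0.14 in the authors' deposited table with an implied interval of -0.35 to 0.073 (q = 0.521).

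Complex II, whose 4 subunits are all nuclear and which is also an enzyme of the citric acid cycle, had no called gene at 5 dpi. Of all genes 5.92% were called, so no call among 4 genes is near that share. Sdha, the flavoprotein that oxidises succinate, stood at 0.23 in the authors' deposited table, with a wide implied interval of -0.17 to 0.62 (q = 0.595). Sdhb, the iron-sulphur subunit, stood at 0.040, and the membrane anchors Sdhc and Sdhd at 0.031 and -0.025 (q from 0.869 to 0.942, as read from the authors' deposited table).

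Complex III had no called gene among 8, with values from -0.14 to 0.10 at 5 dpi in the authors' deposited table. At a share of 5.92% over all genes, no call among 8 is likewise near the background. The core proteins Uqcrc1 and Uqcrc2 stood at 0.10 and -0.087 (q = 0.495 and 0.746, as read from the authors' deposited table). Uqcrfs1, the Rieske iron-sulphur protein, stood at 0.074 in the authors' deposited table, with an implied interval of -0.11 to 0.26 (q = 0.735). Uqcrb, a small subunit near the quinone site, was the lowest at -0.14 (q = 0.611, as read from the authors' deposited table), and Uqcr11 stood at 0.097 (q = 0.714).

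The assembly factors, which help to build complex I without staying in it, were compared with the subunits. None of the 8 Ndufaf genes was called at 5 dpi by the authors' q-value, against 4 of 84 subunits, and 1 of the 8 had an unadjusted p under 0.05. Of all genes 5.92% were called and 19.1% had such a p, and for lists of this size these counts are near those shares. The median of the Ndufaf genes was 0.0015 as read from the authors' deposited table, against 0.017 over the subunits, and 4 of 8 lay above 0, against 49 of 84. Their extremes were Ndufaf2 at 0.19 and Ndufaf4 at -0.18 in the authors' deposited table, with implied intervals of 0.022 to 0.35 and -0.39 to 0.042 (q = 0.189 and 0.402). An opposite-strand transcript covers 65.6% of the exonic bases of Ndufaf2, and how strand was used in counting is not given in the sources used here. Ndufaf8 stood at 0.11 and Ndufaf7, a methyltransferase, at -0.021 (q = 0.517 and 0.906, as read from the authors' deposited table). Between the complexes, medians at 5 dpi ran from -0.0043 in complex V through 0.012 in complex III, 0.033 in complex IV and 0.036 in complex II to 0.037 in complex I in the authors' deposited table. Without the isoforms Ndufa4l2, Cox4i2, Cox6b2, Cox7b2, Cox7a1 and Cox6a2 the complex IV median was -0.0053. Its sign and its place in this order thus rest on these 6 isoforms. Ndufa4l2 and Cox4i2 among them are known from pericytes, and a median without the others alone was not computed. Differences between the classes were not tested.

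**Figure D3:**
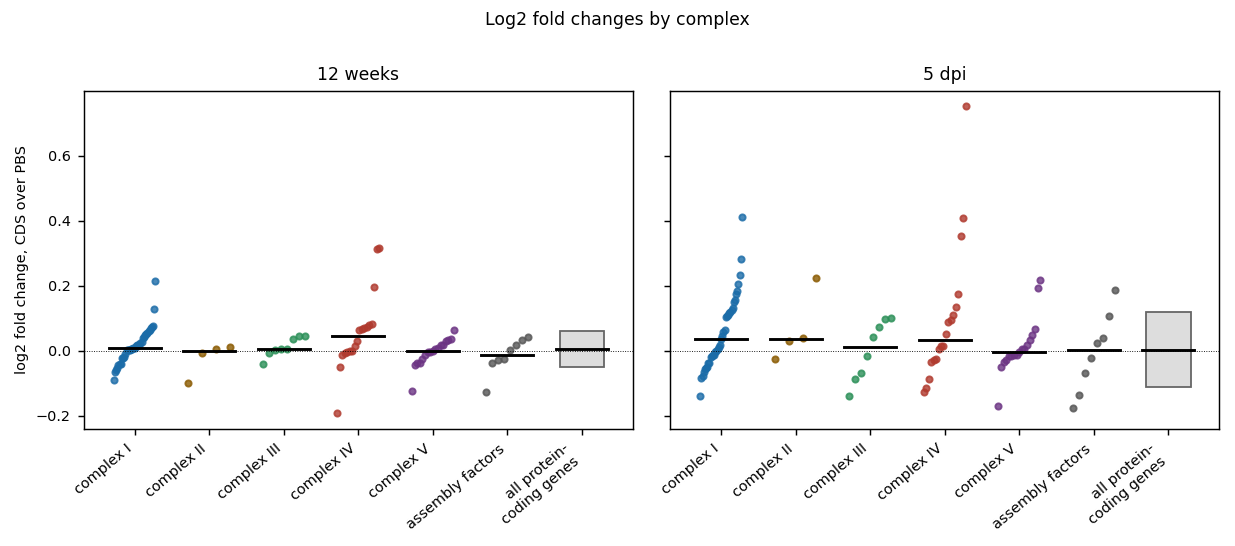
Log2 fold change of CDS over PBS (vertical axis) at 12 weeks (left) and 5 dpi (right); points are genes, black bars are medians, and the grey box spans the quartiles of 15454 protein-coding genes. The medians of the 6 classes lie between -0.012 and 0.046 at 12 weeks and between -0.0043 and 0.037 at 5 dpi.

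At 12 weeks no gene of the list was called in the authors' deposited table, against 0.191% of all genes. All 92 genes had the highest q of the table, which 20103 genes shared, so that their unadjusted p is known only to be at least 0.0134 and no count at an unadjusted 0.05 can be given. The median of the list was 0.0066 at 12 weeks in the authors' deposited table, against 0.0044 over protein-coding genes, and the median absolute value was 0.032, against 0.055. Values over 0.2 in size were found for Cox6b2, Ndufa4l2 and the Ndufa13 entry annotated as Yjefn3, at 0.32, 0.31 and 0.22 in the authors' deposited table. The lowest was Cox7a1, the heart and muscle isoform of subunit 7a, at -0.19 in the authors' deposited table. By complex the medians at 12 weeks were 0.0088 for complex I, -0.00043 for complex II, 0.0056 for complex III, 0.046 for complex IV and -0.0014 for complex V, and -0.012 for the assembly factors, in the authors' deposited table. Without the same isoforms the complex IV median at 12 weeks was 0.022. Complex II values ran from -0.098 for Sdha to 0.010 for Sdhc, and complex III values from -0.039 for Uqcrb to 0.045 for Uqcr10 in the authors' deposited table.

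Of the genes that rose early, Ndufa4l2 stood at 0.31 at 12 weeks in the authors' deposited table, against 0.75 at 5 dpi, and the other 3 stood near 0: Atp5g3 at -0.039, Atp5d at -0.0037 and Ndufb7 at 0.0026. The difference between times was tested per gene as a two-sided z of the log2 fold change at 12 weeks minus that at 5 dpi, with Benjamini-Hochberg adjustment over all genes; the 12-week error, hidden by the tied q, was taken from 5 dpi. None of the 92 genes passed, against 88 (0.432%) of all genes, and 6 of the 92 (6.52%) had an unadjusted p under 0.05, against 7.5% of all genes. The smallest adjusted p was that of Atp5g3, with a difference of -0.23 (adjusted p = 0.154). The difference was -0.44 for Ndufa4l2, -0.50 for Ndufs6 and -0.31 for Ndufaf2 (adjusted p = 0.785, 0.42 and 0.348). With the smallest 12-week error that the tied q allows, 4 of the 92 genes (4.35%) passed, Atp5g3, Ndufs6, Ndufaf2 and Atp5d, against 805 (3.95%) of all genes, a like share. The sign was the same at both times for 44 of the 92 genes, and across genes Spearman's rho was -0.0062 and Pearson's r 0.36, or 0.17 without Ndufa4l2. Over the 86 genes without the 6 isoforms left out of the complex IV median above, rho was -0.12 and r -0.12. The 2 comparisons have separate samples, and the genes of one comparison share them.

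**Figure D4:**
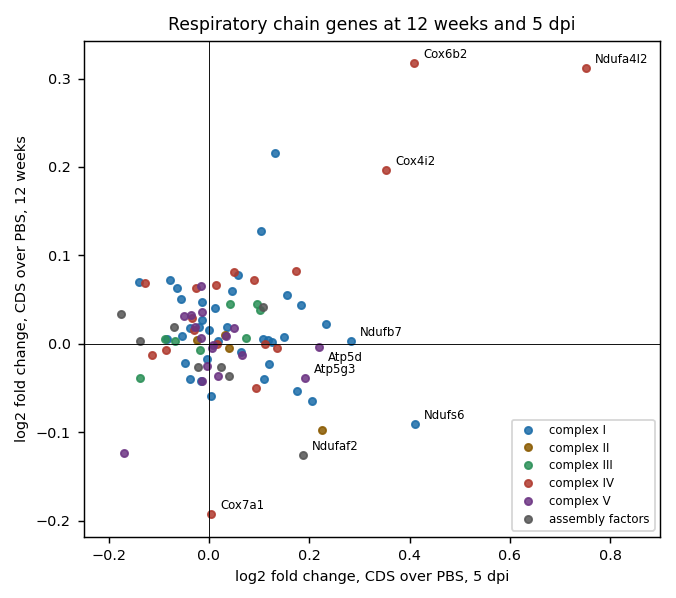
Log2 fold change of CDS over PBS at 12 weeks (vertical axis) against that at 5 dpi (horizontal axis) for the 92 genes, coloured by complex. Ndufa4l2, Cox6b2 and Cox4i2 lie above 0 at both times, while Atp5g3, Atp5d and Ndufb7 lie near 0 at 12 weeks.

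The genes of the chain have short transcripts, with a median length of 892 bases for the longest coding transcript in GENCODE, against 3153 bases over protein-coding genes. Their GC content was close to that of other genes, with medians of 50.7% and 50.3%. The log2 fold change moved with GC content. Across the 92 genes Spearman's rho with GC content was 0.32 at 12 weeks and 0.45 at 5 dpi, against 0.044 and 0.30 over 15428 protein-coding genes. Of the 23 genes with the highest GC content, 20 lay above 0 at 5 dpi with a median of 0.11 as read from the authors' deposited table, and of the 23 with the lowest 8 lay above 0, with a median of -0.039. Protein-coding genes of the same GC ranges had medians of 0.086 and -0.054, with 70.9% and 34.3% above 0. At 12 weeks 20 and 11 of these genes lay above 0, against 2029 of 3558 and 2691 of 5297 protein-coding genes in the same ranges. Of the called genes, Ndufb7, Ndufa4l2 and Atp5d ranked 4th, 6th and 7th by GC content among the 92, at 59.7%, 59.3% and 59.3%, and Atp5g3 ranked 47th, at 50.5%. The part of GC content in these values was not tested.

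**Figure D5:**
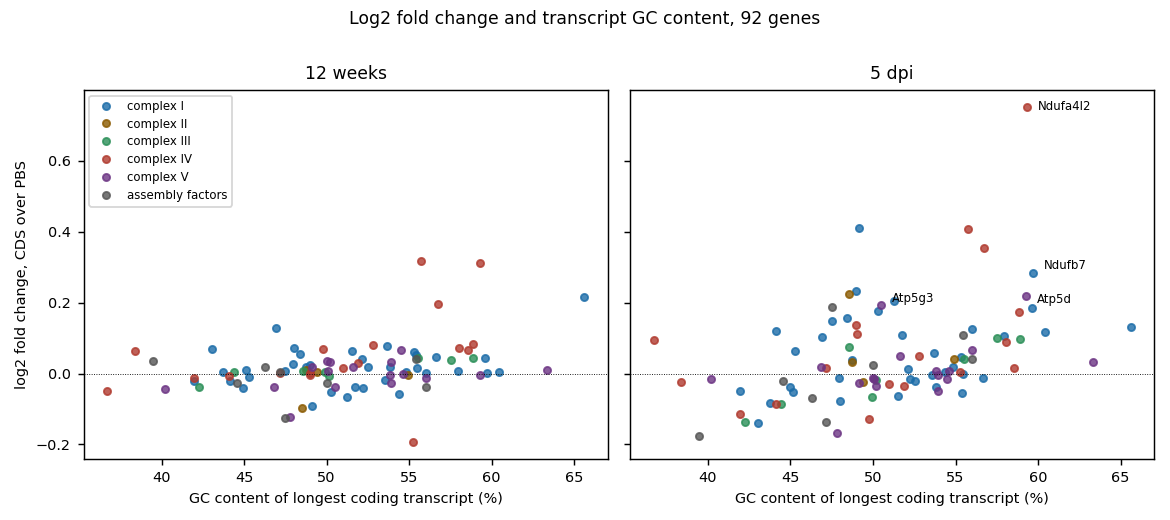
Log2 fold change of CDS over PBS (vertical axis) against the GC content of the longest coding transcript (horizontal axis) for the 92 genes at 12 weeks (left) and 5 dpi (right). At 5 dpi 3 of the 4 named genes with q under 0.05 lie at the GC-rich end, and Atp5g3 lies near the middle.

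Promoters of nuclear chain genes are known for sites of the factors NRF1, GABP of the ETS family and YY1. RefSeq promoters on GRCm38.p6 were found by symbol for 73 of the 91 symbols, and the 250 bases before the start were searched on both strands, with all 27025 genes of the table as background. The NRF1 motif (GCGC, any base, then TGCGC) was found in 17.8% of the 73 promoters, against 3.86% of all. The ETS letters CCGGAAG were found in 17.8% against 7.05%, and the YY1 letters AAGATGG in 0 of 73 against 4.53%. Bases after the start were not searched, so a site there would be missed. The letters ACGTG, the core of the hypoxia response element and part of the E-box CACGTG, were found in 17.8% against 16.6%. The bases before the start of the subunit c genes are shown because Atp5g3 was called and the others were not. Each runs to the start or to the first annotated exon, and capitals mark ACGTG on either strand.
Atp5g3 (chr2:73911327-73911576, minus strand): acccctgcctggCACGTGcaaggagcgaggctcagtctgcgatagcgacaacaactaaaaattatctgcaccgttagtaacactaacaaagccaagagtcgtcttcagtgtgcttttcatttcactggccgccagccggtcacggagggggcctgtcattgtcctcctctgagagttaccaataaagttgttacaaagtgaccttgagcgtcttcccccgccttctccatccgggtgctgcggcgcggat
Atp5g1 (chr11:96075671-96075881, minus strand): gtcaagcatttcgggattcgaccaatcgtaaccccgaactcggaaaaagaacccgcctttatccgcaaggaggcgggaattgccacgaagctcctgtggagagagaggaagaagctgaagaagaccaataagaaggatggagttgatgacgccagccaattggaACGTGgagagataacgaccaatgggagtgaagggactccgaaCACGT
Atp5g2 (chr15:102671128-102671297, minus strand): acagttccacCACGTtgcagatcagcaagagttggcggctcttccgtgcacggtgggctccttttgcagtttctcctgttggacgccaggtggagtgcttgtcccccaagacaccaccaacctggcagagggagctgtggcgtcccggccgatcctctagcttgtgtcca
All 3 hold ACGTG, and the searched window of Atp5g2 also holds the NRF1 motif, in bases that an annotated exon covers and that are not shown. Of the other called genes, Ndufb7 holds the ETS letters and Atp5d holds ACGTG, and Ndufa4l2 was not among the 73 searched. A match is a description of the letters and says nothing of binding.

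Lists of other genes of energy metabolism were set beside the chain. Of all genes 5.92% were called at 5 dpi and 0.191% at 12 weeks, and 19.1% had an unadjusted p under 0.05 at 5 dpi. In lists this small, 0 or 1 called gene is near the share of all genes. Of the subunits encoded by mitochondrial DNA 7 of 13 were measured, none was called at either time by the authors' q-value, and none had an unadjusted p under 0.05 at 5 dpi. Their medians in the authors' deposited table were -0.14 at 12 weeks, with 0 of 7 above 0, and -0.070 at 5 dpi, with 3 of 7 above 0. In the authors' deposited table mt-Co1, the core of complex IV, stood at -0.017 at 12 weeks and -0.089 at 5 dpi, and mt-Nd5 of complex I at -0.16 and -0.30. Another complex I gene, mt-Nd6, stood at -0.058 at 12 weeks and 0.19 at 5 dpi in the authors' deposited table. Of 39 other assembly factors, Coa3, a factor of complex IV, rose by 0.28 at 5 dpi (q = 0.0231, as read from the authors' deposited table), and the median was 0.015. Uqcc3 and Coa7, factors of complexes III and IV, stood at 0.32 and 0.18 (q = 0.144 and 0.151, as read from the authors' deposited table). None of 18 genes of electron carriers and coenzyme Q synthesis was called, and 1 had an unadjusted p under 0.05. The smallest q-values at 5 dpi were those of Pdss1 and Coq7, enzymes of coenzyme Q synthesis, and Cyc1, the cytochrome c1 subunit of complex III. These genes stood at -0.22, 0.12 and 0.11 (q = 0.248, 0.33 and 0.381, as read from the authors' deposited table). None of 18 genes of the citric acid cycle was called or had an unadjusted p under 0.05, and their median at 5 dpi was -0.0030, with 9 of 18 above 0 in the authors' deposited table. The smallest q-values were those of citrate synthase (Cs), malate dehydrogenase (Mdh2) and pyruvate carboxylase (Pcx), at 0.17, 0.24 and 0.090 (q = 0.335, 0.403 and 0.42, as read from the authors' deposited table), and the lowest value was that of Suclg2, a subunit of succinyl-CoA synthetase, at -0.17. None of 17 genes of mitochondrial biogenesis was called, with 4 of the 17 under an unadjusted p of 0.05, against 19.1% of all genes, and 10.8% of all genes under it and lower. Gabpb1, a subunit of the factor GABP, stood at -0.17 and the factor Nrf1 at -0.20 (q = 0.0797 and 0.228, as read from the authors' deposited table). Polg2 and Polg, the subunits of the mitochondrial DNA polymerase, stood at -0.33 and -0.17 (q = 0.153 and 0.192, as read from the authors' deposited table).

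Glycolysis feeds pyruvate to the mitochondrion. Of 17 glycolysis genes, 4 rose and 1 fell at 5 dpi in the authors' deposited table. The shares of all genes were 2.75% called higher, 3.18% called lower and 5.92% in either direction. Before adjustment, p was below 0.05 in 9 of these 17 genes, against 19.1% of all genes. Pfkl and Pfkp, isoforms of the committing enzyme phosphofructokinase, rose by 0.35 and 0.15 (q = 0.00247 and 0.0391, as read from the authors' deposited table). Aldoa, an aldolase, and Eno2, the neuronal enolase, rose by 0.23 and 0.16 (q = 0.0168 and 0.0231, as read from the authors' deposited table). Hk2, an inducible hexokinase, fell by 0.68 (q = 0.00956, as read from the authors' deposited table). None was called at 12 weeks, where the median of the list was -0.0065 in the authors' deposited table, against 0.11 at 5 dpi, and the difference between the lists was not tested.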

How the data were processed

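RNA of 20 medial prefrontal cortex samples was sequenced from stranded, ribosomal RNA-depleted libraries of 400 ng total RNA, per the labels' protocols. Per the submitters' processing notes, STAR, featureCounts and DESeq2 were used with build GRCm38.p5; no version of these tools is given. Each of the 2 tables that the authors deposited gives, per the file headers, a q-value and a log2 fold change for every gene (CDS over PBS). The number of unused columns of per-sample values was 0.

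Taking q for a Benjamini-Hochberg value over the 20375 genes listed, the unadjusted p was q times its rank divided by 20375. The implied SE is the absolute log2 fold change over the z of p. At 12 weeks 272 genes had a recoverable p, none of them of this list. The recovery and the z between times were tested on simulated data (Python 3.11.15, scipy 1.17.1). No set test was run. Coordinates, transcript lengths and GC content came from GENCODE M21; 20306 of the IDs matched, and all 92 genes were protein-coding there. Names of genes encoded by mitochondrial DNA were taken by gene ID.

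The list and the other gene lists were chosen with earlier results of these data known. Genes named were all called genes, the smallest q, highest and lowest of each class, complex II, catalytic complex I subunits and isoform groups, and called or smallest-q genes of other lists; further genes were added after their values were seen. A gene of the list is not reported here by name and is left out of the plot of genes at 5 dpi; it stays in all counts and medians. Alternatives were other thresholds and adjustments, centring, the mean, changed membership and another 12-week error.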

Additional observations from a re-analysis of the deposited data

How the results depend on the processing

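Of the 77 alternative values computed, 69 kept their direction and side of the threshold, or moved by less than the median implied SE. That SE, 0.11 for a single gene, is larger than every median compared, and centring left the q-values of the genes unchanged. The count therefore says little of how stable the medians are, and the complex IV median at 5 dpi changed sign within it. The 4 genes called at 5 dpi became 2 at q under 0.01, and 1 at q under 0.05 with a fold of at least 1.5; 0 were called with Bonferroni adjustment over all genes, and 4 with Benjamini-Hochberg adjustment over protein-coding genes alone. At q under 0.1 there were 5. The difference between times passed for 0 genes, and for 4 (4.35%) with the smallest 12-week error that the tied q allows, against 805 (3.95%) of all genes, so that count rests on an error the table hides. Requiring an error of its own at both times left no gene of the list. No paired analysis was possible because the tables hold no value per sample, and for the same reason no replicate could be left out. The alternative without the gene ID annotated as Yjefn3 was chosen after seeing the data and changed no call. Precision is limited by 5 samples a group, by the assumed form of the q-value, and by 12 processed pseudogenes named for members, among them those of Atp5l, Uqcrh and Ndufs6.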

Other observations

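Atp5d, Ndufs7 and Uqcr11 lie within 268199 bases of each other on chromosome 10 (80138632 to 80406830), at 0.22, 0.18 and 0.097 at 5 dpi in the authors' deposited table. This stretch was picked after their values were seen. It holds 20 measured genes, of which 15 lay above 0 at 5 dpi, and the median in the authors' deposited table was 0.14; without the 3 chain genes the median of the other 17 was 0.11, with 12 (70.6%) above 0. The median GC content of the 20 genes was 59.6%, and of all protein-coding genes in the GC range of the 23 most GC-rich chain genes 70.9% lay above 0, with a median of 0.086. Mex3d, which encodes an RNA-binding protein, was also called there, at 0.26 (q = 0.0484, the authors' deposited table).

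The cell type markers not given above had these medians at 12 weeks and 5 dpi in the authors' deposited table. They were 0.44 and 0.51 for 8 oligodendrocyte genes, 0.062 and 0.20 for 8 astrocyte genes, 0.071 and -0.0037 for 6 endothelial genes and 0.75 and 0.72 for 6 fibroblast genes.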
